A study of Mus musculus with 111 samples.

Results

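Control mouse 2-cell embryos were compared by how much Lrtm1 and Pam RNA they held. The embryos were ranked within each of 3 experiments by a score, the mean of log2 (CPM + 1) of Lrtm1 and of Pam, where CPM is the estimated count of a gene for each 1000000 counts of its library. The 8 highest embryos of experiment 1, 2 of experiment 2 and 8 of experiment 3 formed the high group, and equal numbers of the lowest formed the low group. This placed 18 embryos in the high group and 18 in the low group, 36 of the 111 embryos of the series, and left 20 control embryos in between. Because the score chose the embryos, the levels of Lrtm1 and Pam are given as a description, and both genes were left out of every test.

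All embryos were single B6129F1 embryos at the 2-cell stage. Per the labels, germinal vesicle oocytes, which are arrested before the first meiotic division, were injected with a set of control siRNAs at 20 µM each together with 150 ng per µl of RNA for H2B-EGFP, a green nuclear reporter. The oocytes were held for 5 hours in medium that keeps them arrested, then matured during 12 hours before in vitro fertilization, and embryos grew in KSOM. The control arm had 24 embryos in experiment 1, 7 in experiment 2 and 25 in experiment 3. A second arm of 55 embryos received siRNAs against Nr5a2, a nuclear receptor, with RNA for H2B-rsEGFP, and was split by the same rule as a set of embryos that the ranking of the controls did not use. No label ties embryos to a mother, so the p-values measure the spread between embryos of an experiment. A whole embryo was one library, so differences between the 2 cells of an embryo cannot be seen.

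In the first days after fertilization the mouse embryo lives on RNA stored by the oocyte, and most of that RNA is degraded while the embryo's own genome is switched on. The main wave of this switch falls in the 2-cell stage and includes a short burst of genes such as the Zscan4 cluster. Lrtm1 codes for a membrane protein with leucine-rich repeats. Pam codes for a copper-dependent enzyme of the secretory pathway that amidates the ends of peptide hormones. SmartSeq2, used here with oligo dT priming, starts copying where a primer of T anneals to a run of A in the RNA, carries no molecular identifiers and does not record the strand, so overlapping genes on opposite strands can share reads.

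One property of the measured RNAs recurs below and is shown first. For each gene the transcript that held most of its counts was searched for its longest unbroken run of A or of T. Lrtm1 and Pam both had a long run, and so did most of the called genes. The stretches printed here are from the GENCODE M21 transcripts of build GRCm38, 5′ to 3′ along the transcript. Each shows the 12 bases before the run in lower case and the first 18 bases of the run in capitals, and the coordinates are those of the whole run. They are shown for both ranking genes and for 5 of the genes with the smallest p-values that hold such a run.
Lrtm1: ttgacactttccAAAAAAAAAAAAAAAAAA
Pam: gttttggtttggTTTTTTTTTTTTTTTTTT
Gabra2: acaacaacaaccAAAAAAAAAAAAAAAAAA
Pecam1: ctcgaaaaacccAAAAAAAAAAAAAAAAAA
Nras: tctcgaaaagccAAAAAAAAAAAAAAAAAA
Dock10: cacctgaattacAAAAAAAAAAAAAAAAAA
Bhlhe41: ttgtaacattacTTTTTTTTTTTTTTTTTT

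The run of Lrtm1 was 28 A long and lay in exon 1 of 3, in the 5′ UTR, at chr14:29018321-29018348 on the plus strand. The run of Pam was 31 T long and lay in exon 24 of 24, in the 3′ UTR, at chr1:97821446-97821476 on the minus strand. The run of Gabra2 was 28 A long, in the 3′ UTR of exon 10 at chr5:70959798-70959825 on the minus strand. Pecam1 had 43 A in an exon of a transcript without a coding sequence at chr11:106662928-106662970 on the minus strand. Nras had 29 A in its 3′ UTR, exon 7, at chr3:103066840-103066868 on the plus strand. Dock10 had 32 A in an exon of a transcript without a coding sequence at chr1:80521958-80521989 on the minus strand. Bhlhe41 had 39 T in its 3′ UTR, exon 5, at chr6:145862019-145862057 on the minus strand.

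The transcript with the run carried nearly all counts of both ranking genes. Over the control embryos, 99.99% of the Lrtm1 counts were on the transcript of 7321 bases and 99.3% of the Pam counts were on the transcript of 3630 bases. The longest stretch of letters that these 2 transcripts shared was 29 bases when 1 of them was read on the opposite strand and 13 bases on the same strand. Kallisto assigns reads by matching short words of sequence, and how the reads of these genes were placed along the transcripts was not tested.

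Before the comparisons, 2 features of the libraries need to be stated. The control embryos of experiment 1 held almost no reporter RNA. The first reporter row reached at most 2.18 CPM in these 24 embryos, against 89.6 to 5351 CPM in the 7 control embryos of experiment 2 and 2.91 to 514 CPM in the 25 of experiment 3. The second reporter row reached at most 1.91 CPM in any control embryo. The labels state the reporter for all control injections, so results are also given without experiment 1. The libraries of the 111 embryos held 1.97 to 21.4 M counts, with a median of 4.78 M, where M stands for 1000000.

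Lrtm1 and Pam were high or low together from embryo to embryo, as the plot of both genes by embryo shows. In experiment 1, Lrtm1 ranged between 186 and 388 CPM with a median of 232 CPM in the 8 high embryos, against 78.9 to 130 CPM with a median of 106 CPM in the 8 low embryos. In experiment 2, Lrtm1 had 8.26 and 16.1 CPM in the 2 high embryos, against 2.70 and 3.03 CPM in the 2 low embryos. In experiment 3 it ranged between 67.8 and 132 CPM, median 81.8 CPM, in the 8 high embryos, against 20.6 to 46.3 CPM, median 33.8 CPM, in the 8 low embryos. The groups did not overlap within any experiment, which the ranking by the mean of both genes made likely. The low embryos of experiment 1 overlapped the high embryos of experiment 3.

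Pam ran in the same order. Pam ranged between 197 and 419 CPM, median 236 CPM, in the high embryos of experiment 1, against 70.4 to 125 CPM, median 103 CPM, in the low embryos. It had 8.27 and 12.4 CPM in the high embryos of experiment 2, against 3.43 and 3.54 CPM in the low embryos. It ranged between 87.8 and 164 CPM, median 115 CPM, in the high embryos of experiment 3, against 23.6 to 44.4 CPM, median 42.3 CPM, in the low embryos. Over all 56 control embryos the ratio of Pam to Lrtm1 CPM, not corrected for transcript length, had a median of 1.07 and a range of 0.712 to 1.45. Ranking by each gene alone put the same embryos at the top in 17 of 18 cases and at the bottom in 16 of 18, and no embryo was high by one gene and low by the other.

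**Figure D1:**
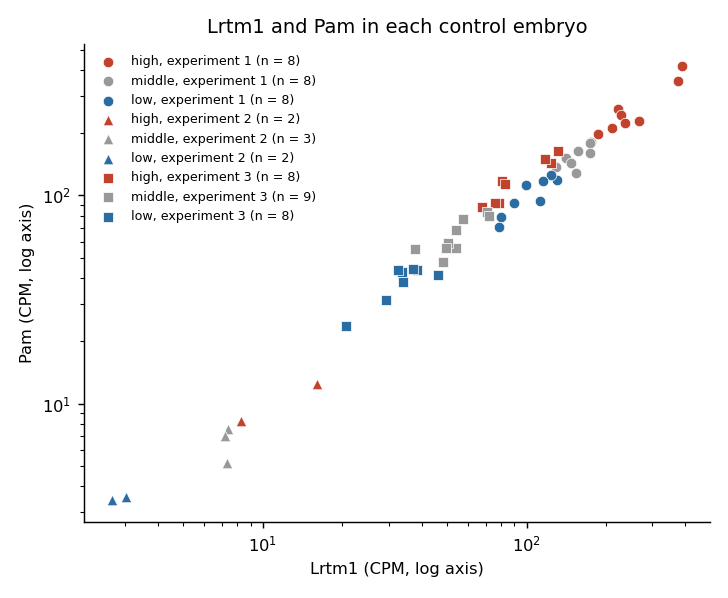
Each point is 1 control embryo, with Lrtm1 on the horizontal and Pam on the vertical axis, both in CPM on log axes. Colours mark the high, middle and low embryos and shapes the experiments, and the points follow one line over the whole range, with experiment 2 at 2.70 to 16.1 CPM of Lrtm1 and experiment 1 at 78.9 to 388 CPM.

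The cuts between groups were narrow. The lowest high embryo scored 7.59 in experiment 1, 3.21 in experiment 2 and 6.29 in experiment 3, and the highest middle embryo scored 7.49, 3.08 and 6.28 in the same order of experiments. The lowest middle embryo scored 7.07, 2.84 and 5.54, and the highest low embryo scored 6.97, 2.1 and 5.49. Both cuts of experiments 1 and 3 thus fell between close scores, and the groups are ranges of one continuous measure.

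Genes passed the test in one direction, higher in the high embryos. Of 13108 features tested with edgeR's quasi-likelihood test, experiment as a factor, 25 were higher in high embryos and 0 were lower at a Benjamini-Hochberg adjusted p below 0.05, which is 0.191% of the features. At an unadjusted p below 0.05, 469 features were higher and 204 lower. DESeq2 called 46 higher and 0 lower, and limma-voom called 26 higher and 0 lower. The median log2 fold change of all tested features was -0.03. In all 25 called genes the mean log2 level of the middle embryos lay between those of the high and low embryos. This was so for 46.1% of all tested features. The 25 had been chosen for a wide difference between high and low embryos, which favours a middle mean in between. The means were taken within each experiment and then averaged over the 3 experiments. For each of the 25 the high and low embryos overlapped when the 3 experiments were pooled, and the share over all features is not given.

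The calls rested on experiments 1 and 3 together. Without experiment 1, whose control embryos held almost no reporter RNA, 2 genes were called, and without experiment 3 edgeR called 0. Without experiment 2, which gave 2 embryos to each group, 26 were called. Each experiment alone called 0, 0 and 1 genes, in the order 1 to 3. In 24 of the 25 genes the log2 fold change had the same sign in all 3 experiments fitted alone, and the exception was Gm2628, a processed pseudogene, with 0.89, -0.14 and 1.68 in experiments 1 to 3. The joint fit had chosen the 25 genes on the same embryos, and that choice favours one sign. A test of whether the difference varied with the experiment called 0 of 13108 features, with 1163 at an unadjusted p below 0.05.

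The smallest p belonged to Gabra2, which codes for the alpha 2 subunit of the GABA-A receptor, a chloride channel of neurons. On CPM scaled by the trimmed mean of M-values (TMM), used for gene levels from here on unless plain CPM on library totals is named, Gabra2 ranged between 33.2 and 104 CPM, median 46.1 CPM, in the high embryos of experiment 1, against 15.4 to 52.2 CPM, median 20.4 CPM, in the low embryos. In experiment 2 it had 2.57 and 6.23 CPM in high embryos, against 0.545 and 1.05 CPM in low embryos. In experiment 3 it ranged between 34.7 and 61.1 CPM in high embryos, against 12.2 to 22.5 CPM in low embryos. The groups were separate in experiments 2 and 3 and overlapped in experiment 1. With 2 embryos in each group, separation in experiment 2 arises easily by chance. The log2 fold change was 1.38 (SE 0.18, edgeR adjusted p = 4.89e-05). Each of the 18 high embryos exceeded the median of the low embryos of its own experiment, which choosing the gene on these embryos favours. Of its counts, 97.0% were on a transcript annotated for nonsense-mediated decay.

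Dock10 was higher in the high embryos. Its level ranged between 3438 and 8288 CPM, median 4073 CPM, in the high embryos of experiment 1, against 2437 to 4010 CPM, median 2705 CPM, in the low embryos. It had 1277 and 2171 CPM in the high embryos of experiment 2, against 1148 and 1345 CPM in the low embryos. It ranged between 3922 and 7879 CPM, median 4650 CPM, in the high embryos of experiment 3, against 2016 to 3293 CPM, median 2579 CPM, in the low embryos. The groups were separate in experiment 3 and overlapped in the other 2. The log2 fold change was 0.83 (SE 0.13, edgeR adjusted p = 0.000178). Of its counts, 99.9% were on 1 retained-intron transcript of 1899 bases and not on a coding transcript.

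Pecam1, an adhesion molecule of endothelial cells and platelets, averaged 452 ± 164 CPM in high embryos and 262 ± 78.2 CPM in low embryos (SD, n = 18 each). Its log2 fold change was 0.78 (SE 0.11, edgeR adjusted p = 0.000178), and 88% of its counts were also on a retained-intron transcript. Nras, a small GTPase of growth factor signalling, averaged 402 ± 111 CPM in high embryos and 244 ± 60.9 CPM in low embryos, a log2 fold change of 0.73 (SE 0.11). Bhlhe41, a transcriptional repressor that takes part in the circadian clock, averaged 162 ± 62.6 CPM in high embryos and 90.3 ± 26.4 CPM in low embryos, a log2 fold change of 0.82. For each of these 3 genes, all 18 high embryos exceeded the median of the low embryos of their own experiment. Choosing the genes on the same embryos favours such counts.

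Zfp101, which codes for a zinc finger protein, had no long run and yet stood among the smallest p-values. It ranged between 136 and 349 CPM, median 177 CPM, in the high embryos of experiment 1, against 43.2 to 170 CPM, median 103 CPM, in the low embryos. It had 58.7 and 60.3 CPM in the high embryos of experiment 2, against 17.4 and 21.4 CPM in the low embryos. It ranged between 85.0 and 184 CPM in the high embryos of experiment 3, against at most 74.6 CPM in the low embryos. The groups were separate in experiments 2 and 3, with only 2 embryos in each group of experiment 2, and overlapped in experiment 1. The log2 fold change was 1.15 (SE 0.16, edgeR adjusted p = 7.87e-05), and the longest run of A or T in its main transcript was 11 bases.

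**Figure D2:**
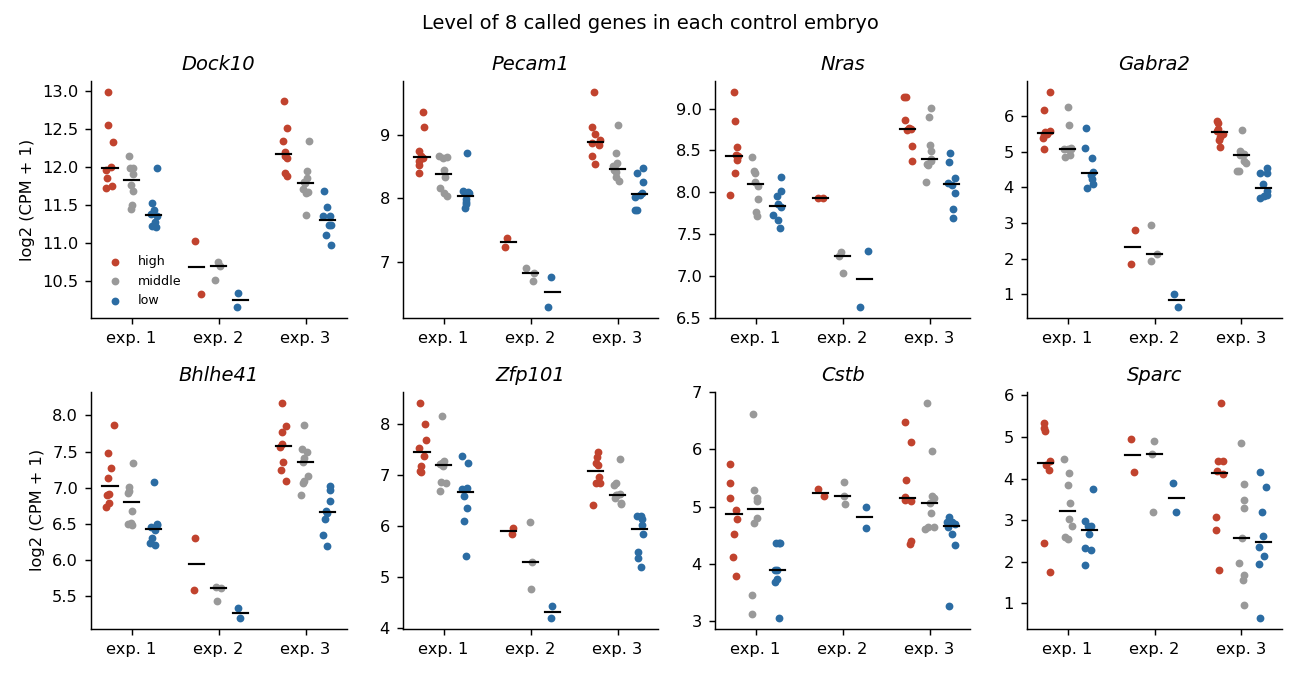
Level of 8 called genes in each of the 56 control embryos, as log2 (CPM + 1) after TMM scaling, by experiment, with the high embryos left, the middle ones between and the low ones right, and a bar at each median. Gabra2, Zfp101, Pecam1, Nras, Dock10 and Bhlhe41 fall stepwise over the 3 groups in each experiment, whereas Cstb and Sparc spread more widely within the groups.

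The other genes named by the rule have varied known roles. Slc30a9, of a zinc transporter family, had a log2 fold change of 1.18 (SE 0.19), and Jkamp, a membrane protein that binds the kinase JNK1, one of 1.06 (SE 0.18). Cdh6, a cadherin, averaged 13.6 ± 6.95 CPM in high embryos and 6.77 ± 3.71 CPM in low embryos, a log2 fold change of 1.06. Pax8, a paired-box regulator of thyroid and kidney development, had 1.24 (SE 0.22), Stox2, of the storkhead-box family, 0.91 (SE 0.16), and Acnat1, of the acyl-CoA amino acid N-acyltransferase family, 1.21 (SE 0.22). Their edgeR adjusted p-values lay between 0.000611 for Slc30a9 and 0.00258 for Acnat1 and Stox2. For Pax8 and Slc30a9 the counted transcript was again a retained-intron form, with 99.4% and 86.1% of the counts.

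Cstb and Sparc were the other called genes without a long run. Sparc, a secreted protein that binds the extracellular matrix, averaged 20.6 ± 14.2 CPM in high embryos and 7.00 ± 4.50 CPM in low embryos, and the log2 difference was 1.58 (SE 0.36, edgeR adjusted p = 0.0415). It had the largest fold change among the called genes but the call held in only 13 of the 36 fits that each left out 1 embryo. Cstb, an inhibitor of lysosomal cathepsins, averaged 37.1 ± 19.4 CPM in high embryos and 19.8 ± 6.92 CPM in low embryos, which is 0.92 as a log2 fold change (SE 0.20) with an edgeR adjusted p of 0.0285, and was called in 28 of those fits. The longest runs were 16 bases in Sparc, whose main transcript held only 29.4% of its counts, and 5 bases in Cstb. Cstb and the 11 genes of the next sentence fall outside the naming rule and are named after their values were seen. Fermt3, Lrp4, Znrf3, Prune2, Cep97, Adam22, Vmn2r74, AW822252, Gm12792, Gm2961 and Gm2628 had log2 fold changes between 0.57 for AW822252 and 1.19 for Gm2628.

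Most called genes had the long run, which few tested genes had. A run of 24 or more A or T lay in the main transcript of 332 of the 12995 tested genes with a sequence, 2.55%, and of 22 of the 25 called genes, 88%. The minimum of 24 was chosen after these values were seen, so no test is given. With a minimum of 15 the shares were 9.45% of tested and 92.0% of called genes, and with a minimum of 28 they were 1.27% and 72.0%. When the 332 genes were left out before filtering and scaling, 1 gene remained called of 12776 tested, Zfp101 with an adjusted p of 0.000146 (edgeR).

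The difference between high and low embryos was larger in genes with longer runs, over all tested genes. The median log2 fold change was -0.04 in the 11767 genes with a longest run under 15 bases, -0.03 in the 686 with 15 to 19 and -0.03 in the 210 with 20 to 23. It was 0.04 in the 132 genes with 24 to 26 bases, 0.19 in the 77 with 27 or 28 and 0.37 in those with 29 or more. Of the last class, 83.7% had a positive value, against 43.2% of the genes with runs under 15. Genes were the points of this description and are not independent replicates. By experiment, the median of the 332 genes was 0.19, 0.23 and 0.32 in experiments 1 to 3, against -0.00, 0.01 and -0.01 in the genes with shorter runs. The 310 of them that were not called had a median of 0.16.

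**Figure D3:**
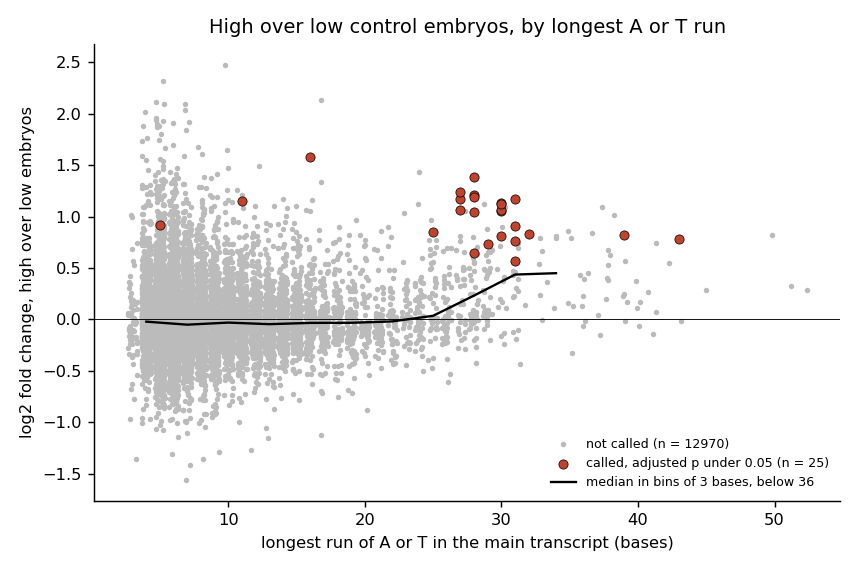
Log2 fold change of high over low control embryos for each tested gene, against the longest run of A or T in its main transcript in bases. Red points are the 25 called genes, 22 of them with runs of 25 to 43 bases, and the black line, the median in bins of 3 bases, lies near 0 below 24 bases and above 0 beyond.

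The runs of the called genes differed in kind and place. Of the 22, 15 were runs of A and 7 runs of T. They lay in a 3′ UTR in 11 genes, in a 5′ UTR in 1 and in an exon of a transcript without a coding sequence in 10, spread over 15 chromosomes. The main transcript was protein coding in 11 and of another class in 11, such as a retained intron or a processed pseudogene. In 20 of the 22 it held over 80% of the counts of its gene. Read on the strand that shows A, the base before the run was C in 20 of the 22 called genes, 90.9%, against 209 of all 332 tested genes with such a run, 63.0%. It was C in both Lrtm1 and Pam. The base after the run was G in 54.5% of the called genes and in 60.2% of the 332.

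The genes with a run together made up a small and variable share of each library. The 332 genes held 1.78% to 2.21% of the counts, median 1.94%, in the high embryos of experiment 1, against 1.59% to 1.75%, median 1.66%, in the low embryos. They held 1.49% and 1.51% in the high embryos of experiment 2, against 1.35% and 1.38% in the low embryos. In experiment 3 they held 1.86% to 2.23%, median 1.97%, in high embryos, against 1.52% to 1.85%, median 1.60%, in low embryos. The groups were separate in all 3 experiments, by narrow margins in experiments 1 and 3 and with only 2 embryos in each group of experiment 2. Most of this difference lay in the called genes, which had been chosen for it. Without them the share was 1.11% to 1.43% in high and 1.22% to 1.33% in low embryos of experiment 1, and its median was 1.26% in high and 1.22% in low embryos of experiment 2 and 1.31% in high and 1.26% in low embryos of experiment 3, and the groups overlapped in each.

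The knockdown embryos, which the ranking of the controls did not use, shared most of the control calls. Split by the same rule, 17 high and 17 low knockdown embryos were compared over 12760 features, and 38 were higher and 0 lower with edgeR, 0.298% of the features. At an unadjusted p below 0.05 there were 864 features in either direction and 245 lower, and DESeq2 called 88 higher and 2 lower. Of the 25 control calls, 20 were also called in the knockdown embryos, 80% of the control list and 52.6% of the knockdown list. All 25 had a positive log2 fold change there. The 2 splits shared no embryo. Without experiment 1 the knockdown split called 9 genes, and without experiment 3 it called 16.

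On plain CPM, Lrtm1 in experiment 1 ranged between 661 and 1805 CPM in the 5 high knockdown embryos, against 127 to 272 CPM in the 5 low ones. Nr5a2, the target of the siRNAs, had medians of 52.3, 48.7 and 39.9 plain CPM in the knockdown embryos of experiments 1 to 3, against 118, 105 and 80.6 plain CPM in the control embryos, and the ranges of the arms overlapped in each experiment. Nr5a2 itself did not differ beyond its spread between high and low control embryos, at a log2 fold change of -0.04 (SE 0.24) and an edgeR adjusted p of 0.999. Its values in the 3 experiments were -0.67, -0.56 and 0.71, and the test of that variation gave an unadjusted p of 0.0114 and an adjusted p of 0.554.

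The estimate was larger in the knockdown split for 20 of the 25 genes, but no difference between the arms passed its test. The 2 splits were not equally wide. Lrtm1 in experiment 1 had high and low medians of 769 and 155 plain CPM in knockdown embryos, against 232 and 106 in controls. Pam in experiment 3 had 254 and 96.7 plain CPM, against 115 and 42.3 in controls, a similar width. What this adds to the estimates was not tested. Zfp101 had a log2 fold change of 1.88 (SE 0.22) between high and low knockdown embryos, against 1.15 (SE 0.16) in control embryos, and Gabra2 had 2.1 (SE 0.26) against 1.38 (SE 0.18). Jkamp had 1.68 (SE 0.20) against 1.06 (SE 0.18). Stox2, Acnat1, Fermt3, Sparc and Cstb were not called in the knockdown split, with log2 fold changes of 0.71, 1.00, 0.56, 0.88 and 0.57 in it. The test of the difference between arms, over 70 embryos, called 0 of 14684 features with edgeR, with 371 at an unadjusted p below 0.05, and for Gabra2 the difference was 0.70 (SE 0.31, edgeR adjusted p = 1.00).

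**Figure D4:**
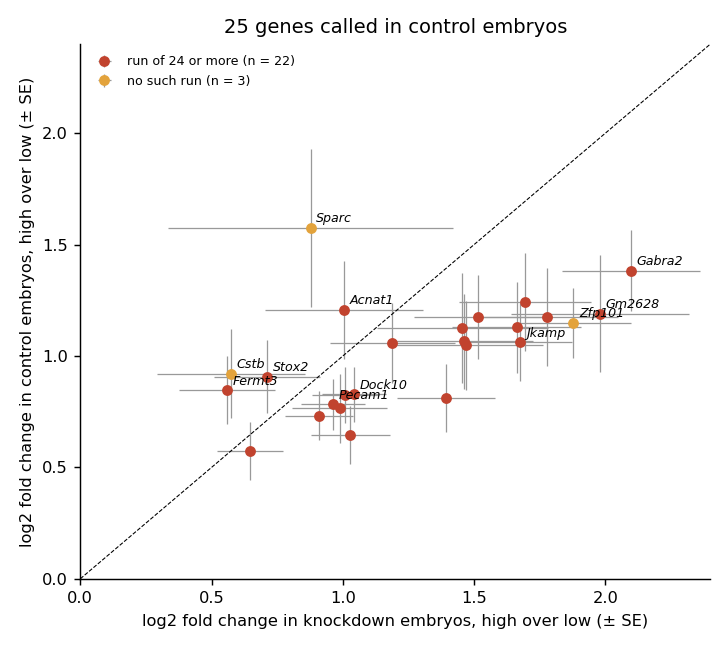
Log2 fold changes of high over low embryos for the 25 genes called in control embryos, with knockdown embryos on the horizontal and control embryos on the vertical axis, each with its standard error, and a dashed line of equality. All 25 lie above 0 on both axes, and red marks the 22 genes with a run of 24 or more.

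Among the genes called in the knockdown split the run was present in 30 of the 38, 78.9%, against 2.55% of the tested genes with a sequence. The median log2 fold change over genes with runs of 29 or more was 0.47 in the knockdown split, against 0.01 in genes with runs under 15. With all genes with runs of 24 or more left out, 6 genes remained called there: Zfp101, Atp6v0e2, Gm19220, Gm5989, Rep15 and Siglec1, named after their values were seen. Zfp101 was the one gene called in both splits after that step, with an adjusted p of 3.1e-06 in the knockdown split (edgeR).

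A list of 9 genes had been named as higher in Nr5a2 knockdown embryos in a comparison that used these control embryos. Of the 9, 5 were called higher in high control embryos, namely Zfp101, Dock10, Cdh6, Fermt3 and Adam22, against 0.191% of all features. The list had been chosen on these libraries and is not independent of them. Of its 9 members 5 held a run of 24 or more, and of 13 genes named as lower in knockdown embryos none did. None of those 13 was called here, and their median log2 fold change was -0.00.

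The depth of the libraries moved with the score. The high libraries held 2.18 to 12.4 M counts, median 4.50 M, and the low ones 3.96 to 15.4 M, median 6.17 M. The mean within-experiment difference of log2 totals was -0.56 (SE 0.16, two-sided permutation test within experiments, p = 0.00091, adjusted p = 0.00455 over 5 measures), a ratio of 0.679. It was -0.77, -0.55 and -0.35 in experiments 1 to 3. With the log2 total as a term of the fit 8 genes were called, all higher. The part of the library total in the 25 calls was not tested further.

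The mitochondrial share of the counts was higher in the high embryos, narrowly past the threshold. It averaged 7.95% ± 2.09 in high embryos and 6.53% ± 1.83 in low embryos (SD, n = 18 each). The mean within-experiment difference was 1.42 percentage points (SE 0.60, two-sided permutation test, p = 0.0198, adjusted p = 0.0495), and it was 2.04, 0.01 and 1.15 points in experiments 1 to 3. The test was no longer passed without experiment 1 (0.925 points, permutation p = 0.077) or without experiment 3 (1.63 points, permutation p = 0.112). With this share as a term 16 genes were called. Genes detected per embryo averaged 17718 ± 600.3 in high embryos and 18061 ± 852.0 in low embryos, and after every library was thinned to 2148979 counts they averaged 16739 and 16540. Neither difference passed the permutation test, with adjusted p-values of 0.208 and 0.364. The reporter RNA did not pass it either (adjusted p = 0.800).

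Summed markers of other cell types, in plain CPM, overlapped between the groups. Of 20 markers of cumulus and granulosa cells, which surround the oocyte, 11 had a median of 0 in both groups, among them Amh, Foxl2, Fshr and Nr5a1. Their summed level ranged between 87.7 and 183 CPM in high embryos, against 37.7 to 192 CPM in low embryos, and most of it was Amhr2. Of 15 sperm markers 6 had a median of 0 in both groups. The sum of the 15 ranged between 144 and 335 CPM in high embryos, against 167 to 315 CPM in low embryos. Most of that sum was Odf2, with medians of 177 CPM in high and 182 CPM in low embryos. Markers of the oocyte were abundant: 53 oocyte genes summed to a median of 25002 plain CPM in high embryos, against 25311 plain CPM in low embryos. Over the 52 tested and with TMM scaling the order turned, with a median sum of 25873 CPM in high embryos, against 25063 CPM in low embryos, and 0 of them were called in either direction.

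No gene of the 2-cell burst was called, although most had positive values. Of 37 tested members, 33 had a positive log2 fold change and 4 a negative one, with a median of 0.49, against -0.03 over all features. Over all features 44.0% had a positive value and 0.191% were called, the background for this list and those that follow. At an unadjusted p below 0.05 there were 9, all higher. Zscan4d, of the cluster that marks the burst and protects telomeres in mouse embryonic stem cells, averaged 136 ± 92.0 CPM in high embryos and 65.4 ± 42.2 CPM in low embryos, which is 1.05 as a log2 fold change (SE 0.32) with an edgeR adjusted p of 0.413. The medians of the list were 0.60, 0.75 and 0.27 in experiments 1 to 3, and the median in the knockdown split was 0.38, with 29 of 34 positive. None of the members held a run of 24 or more. Genes of a cluster such as Zscan4 share sequence, so their counts are uncertain individually.

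Trophectoderm genes, which mark the outer layer of the later blastocyst, gave 0 calls of 20 tested, with 13 positive and a median of 0.33. The medians were 0.21, 1.1 and 0.10 in experiments 1 to 3, and the median was 0.67 without experiment 3. Hand1, a regulator of trophoblast cells, averaged 28.2 ± 16.1 CPM in high embryos and 8.57 ± 10.2 CPM in low embryos, which is 1.75 as a log2 fold change (SE 0.49) with an edgeR adjusted p of 0.285. It passed with DESeq2 (adjusted p = 0.0346) and with limma on the authors' batch-corrected table (adjusted p = 0.0239). Of 16 pluripotency genes none was called and 12 were positive, with a median of 0.10. With the library total as a term 8 were positive, with a median of 0.05, and in the knockdown split 7 were positive, with a median of -0.12. Nanog, a regulator of the pluripotent epiblast, averaged 8.27 ± 4.07 CPM in high embryos and 4.67 ± 2.01 CPM in low embryos, which is 0.82 as a log2 fold change (SE 0.25) with an edgeR adjusted p of 0.404.

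The 13 protein-coding genes of the mitochondrial genome all had positive values, with a median log2 fold change of 0.26 and with 0.33, -0.20 and 0.30 by experiment, and 0 of 13 were called. The one with the smallest p, mt-Nd5, a subunit of complex I, averaged 5513 ± 2026 CPM in high embryos and 4410 ± 1954 CPM in low embryos. Its log2 fold change was 0.31 (SE 0.14, edgeR adjusted p = 0.935). Of 70 nuclear genes for oxidative phosphorylation, 0 were called and 29 were positive, a share near the 44.0% of all features. Their median was -0.04, and with the library total as a term it was 0.01.

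Lists for ribosome biogenesis, the spliceosome, the proteasome and cytosolic ribosomal proteins had negative medians that turned positive in experiment 3, and gave 0 calls. Of all 13108 features 7334 were negative, and 0.191% were called. Of 102 tested ribosome biogenesis genes 93 were negative, with a median of -0.16, and the medians were -0.38 and -1.02 in experiments 1 and 2 and 0.22 in experiment 3. Of 50 spliceosome genes 38 were negative, with a median of -0.17 and with -0.29, -0.68 and 0.12 by experiment, and with the library total as a term 27 were negative, with a median of -0.02. Of 44 proteasome genes 34 were negative, with a median of -0.16 and with -0.21, -0.60 and 0.03 by experiment. Of 89 cytosolic ribosomal protein genes 67 were negative, with a median of -0.06 and with -0.26, -0.87 and 0.34 by experiment, and with the library total as a term the median was 0.06. Lists for replication and for chaperones of the endoplasmic reticulum had medians of -0.08 and -0.08, negative in all 3 experiments, and also 0 calls. Apart from the list of 9 genes named as higher in knockdown embryos, no list examined held a called gene.

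Genes with roles near those of the ranking genes gave 0 calls, where 0.191% of all features were called, so that lists of this size would seldom hold one. Of 19 tested genes for peptide processing and copper handling, the setting of Pam, 10 were positive and 9 negative, with a median of 0.00. Furin, a protease that cleaves proproteins in the secretory pathway, had 0.59 as a log2 fold change (SE 0.23) with an edgeR adjusted p of 0.794. Of 11 tested membrane proteins with leucine-rich repeats, the class of Lrtm1, 4 were positive and 7 negative, with a median of -0.11. Lrrc15 had 1.09 (SE 0.31, edgeR adjusted p = 0.326).

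**Figure D5:**
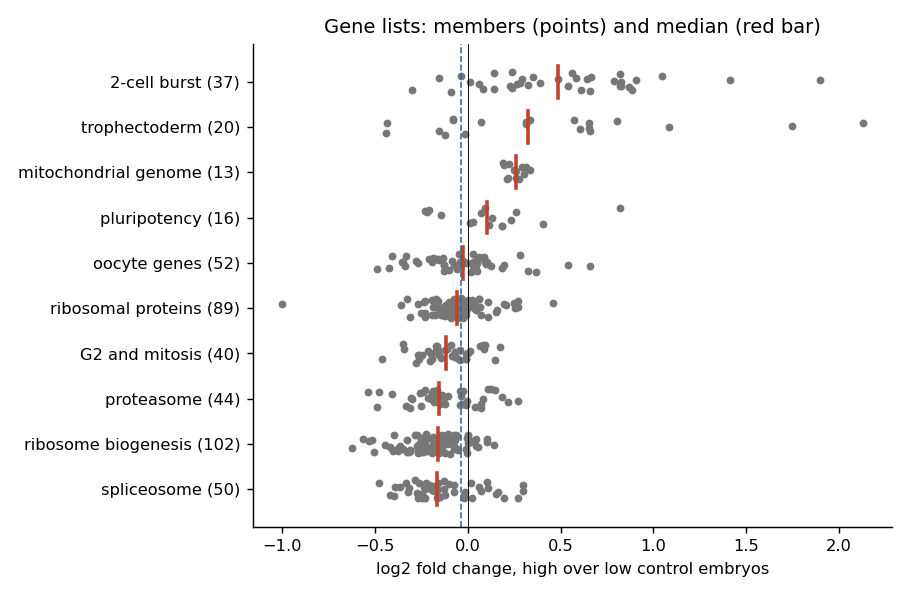
Log2 fold change of high over low control embryos for the tested members of 10 gene lists, 1 point a gene, with a red bar at the median of each list and a dashed blue line at the median of all features, -0.03. The 2-cell burst has the highest median, 0.49, and ribosome biogenesis and spliceosome genes lie lowest.

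No gene was called lower in the high embryos, and the 5 lower genes with the smallest p-values are given as not called. In simulated data the fit recovered 40% of 2-fold and 5% of 1.5-fold changes. Genes not called, those of the lists included, may therefore still differ. Uqcc1, an assembly factor of mitochondrial complex III, averaged 37.7 ± 13.4 CPM in high embryos and 55.1 ± 14.3 CPM in low embryos, which is -0.56 as a log2 fold change (SE 0.15) with an edgeR adjusted p of 0.267. Ruvbl2, an ATPase of chromatin remodelling complexes, had -0.77 (SE 0.23), and Top3a, a topoisomerase, -0.34 (SE 0.10). Atp6v1c1, a subunit of the vacuolar proton pump, had -0.47 (SE 0.15), and Dgkd, a diacylglycerol kinase, -0.45 (SE 0.14). Their adjusted p-values lay between 0.267 and 0.413.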

How the data were processed

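Single mouse 2-cell embryos were sequenced with SmartSeq2 and oligo dT priming, per the labels' protocols. Tools in the submitters' processing notes are kallisto 0.46.1, Trim Galore 0.6.2, bcl2fastq, DESeq2 1.32.0 and R 3.5.1, and the notes name hg19 beside mm10 with no role for either. For the transcript index, an annotation release is not given in the sources used. Analysis began with estimated counts for each transcript, deposited by the authors without normalization (expected counts). A second deposited table, adjusted by the authors for batch in a way not stated and treated here as a score, served as 1 alternative. The authors' deposited table of log2 fold changes and p-values supplied gene names only. A deposited table of normalized values and 1 of thresholded comparisons were not used. Groups came from the titles and the treatment label. The design text names 57 control embryos, of which 56 were analysed here.

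The 119358 transcript rows were summed by gene name into 35973 names. The 2164 rows without a name held a median of 1.02% of the counts of a control library. They counted in the library totals used for the score, plain CPM and depth. Apart from the B1 and B2 repeat rows, which were kept, they entered neither edgeR's library sizes nor its tests. Sums were rounded to whole numbers. High and low embryos were tested with edgeR 4.0.16 in R 4.3.3 (quasi-likelihood F-test, TMM scaling, filterByExpr, experiment as a factor), with p-values adjusted by Benjamini-Hochberg over all features. DESeq2 1.42.0 and limma 3.58.1 were alternatives. The fit was tested on simulated data without differences between experiments, where it recovered 40% of 2-fold and 5% of 1.5-fold changes. Depth per library was 1.97 to 21.4 M counts (M, 1000000), and without molecular identifiers this gives counting error only. Library measures were tested with 100000 permutations of the group within experiments, and the smallest p these can give is 1e-05.

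Transcript sequences were from GENCODE M21 (GRCm38); 116238 rows, with 98.6% of the counts, had a sequence. Reads of paralogs and of overlapping genes cannot be told apart. Named genes were Nr5a2, then the called genes other than clone names whose average log2 CPM reached 3 and whose sign was the same in all experiments (12 with the smallest p and 4 with the largest fold per direction), or, with none called in a direction, the 5 with the smallest p, plus, from every list, at most 2 called members or otherwise the one with the smallest p. The members and lists were chosen with earlier results of these data known. Alternatives were other scalings, tests, filters, splits, scores and covariates, and embryos or experiments left out.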

Additional observations from a re-analysis of the deposited data

Results flagged for a closer look

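Within each experiment, the highest and the lowest embryo of a group of 4 to 10 were set against their neighbours by Dixon's criterion. Of 260 groups tested, 28 stood apart, and chance alone gives about 1 in 20. Gene levels are TMM-scaled CPM, with the nearest embryo of the same group in brackets, and no cause was tested.

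Control embryo 1 of experiment 1, in the low group, gave 9 of these values. It was the highest low embryo for Pecam1 at 416 (283), Dock10 at 4010 (3019), Bhlhe41 at 134 (91.6) and AW822252 at 56.6 (34.3), all called genes. It was also the highest for mt-Nd5 at 11047 (5775) and Furin at 86.5 (34.1). Its mitochondrial share was 12.4% (7.65%). It was the lowest for Obox3 at 28.8 (107) and Mrpl3 at 8.39 (20.0). Without this embryo 33 genes were called.

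Control embryo 8 of experiment 3, in the high group, was the highest for the called genes Slc30a9 at 198 (85.8), Acnat1 at 43.5 (24.1), Prune2 at 53.5 (28.6), Cep97 at 470.4 (200.1) and Vmn2r74 at 11.6 (5.35). It was the lowest for Uqcc1 at 18.7 (37.0) and Plk3 at 8.16 (19.1).

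Other high embryos of experiment 3 stood apart as well. Embryo 20 was the lowest for Hand1 at 0.185 (9.77) and Rpl3 at 32.0 (69.0). Embryo 25 was the highest for Lrrc15 at 239 (83.4) and had 19126 genes detected (17818). Embryo 13 was the lowest for Nanog at 2.41 (6.41).

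Among high embryos of experiment 1, embryo 22 was the highest for Uqcc1 at 61.4 (35.6), and embryo 11 was the lowest for Fermt3 at 12.9 (25.6). Embryo 12 was the lowest for Sf3b3 at 21.1 (39.3) and had the most reporter RNA, 0.714 CPM on library totals (0.260). Embryo 20 had the largest library, 12.4 M counts (4.53 M). In the low groups, embryo 7 of experiment 1 was the lowest for Top3a at 61.5 (79.3), and embryo 19 of experiment 3 was the lowest for Cstb at 8.77 (19.0).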

How the results depend on the processing

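The 25 calls between high and low control embryos became 46 with DESeq2, which called all 25, 2 without experiment 1, 0 without experiment 3, and 0, 0 and 1 in experiments 1, 2 and 3 alone. They became 8 with the log2 library total and 16 with the mitochondrial share as a term, and 1 with genes with a run of 24 or more, or of 15 or more, left out (both chosen after seeing the data). Leaving out each embryo in turn gave 20 to 33 calls, and 20 genes were called in all 36 fits. The called genes were compared with an alternative 1449 times, leaving out alternatives whose filter removed the gene. In these comparisons no log2 fold change changed sign, and 273 lost the call. Fitted without that filter, Gm2628 had -0.14 in experiment 2 alone. The 38 knockdown calls became 90 with DESeq2, 9 without experiment 1, 16 without experiment 3 and 6 with genes with a run of 24 or more left out.

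The difference in genes detected passed its test without experiment 2 (-493) and was 199 in thinned libraries (added after seeing the data). That in mitochondrial share no longer passed without experiment 1 (0.925 points) or 3 (1.63 points). That in reporter RNA was -0.12 without experiment 2.

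Nr5a2, at -0.04, turned to 0.47 without experiment 1, 0.032 without experiment 2, 0.71 in experiment 3 alone, 0.024 ranked by Lrtm1 alone, 0.12 with a TMM-scaled score, 0.040 with the highest against the lowest 1 in 4, 0.041 as a slope over 56 embryos, 0.040 with the library total, 0.12 with the mitochondrial share and 0.013 with principal component 1 as a term, and 0.035 in the batch-corrected table. Without 1 embryo it ranged between -0.14 and 0.037. Odf2 turned to 0.063 without experiment 3, 0.48 in experiment 2 alone and 0.0038 ranked by Lrtm1 alone. In experiment 2 alone, Obox3 was -0.73, Rxra -0.81, Tut4 -0.26 and Kdm5d 0.11. In experiment 3 alone, Bms1 was 0.0018 and Cbx7 0.081. None of these 8 genes was called. The cause was not tested. No paired analysis was possible because embryo numbers name single embryos and pair none.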
